A study of Homo sapiens with 34 samples.

Results

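The deletion studied here removes part of an intron of HNRNPD in RPE-1 cells, a telomerase-immortalised line from human retinal pigment epithelium, and its RNA was compared with RNA of cells edited at intergenic sites. Of the 34 libraries of the series, 6 entered the comparison. They were the 2 libraries labelled as HNRNPD intronic deletion hgRNA 1 (spelt HNPNPD in the titles) and the 4 intergenic control libraries, which are duplicates of each of 2 control hgRNAs. A hybrid guide RNA (hgRNA) joins a Cas9 guide and a Cas12a guide in 1 transcript, so that both nucleases cut and the sequence between the cuts can be lost, an approach named CHyMErA. The other 28 libraries hold 20 libraries of deletions in 5 other targets (DDX5, DDX17, an intron of FNBP4, an exon of FNBP4 labelled PTC exon, and HDAC7) and 8 libraries of gene knockouts. All groups received lentivirus encoding the guides at an estimated multiplicity below 1, were kept for 72 h in puromycin (20 µg/ml) and grew for 4 days afterwards. Total RNA was depleted of ribosomal RNA and sequenced with strand-specific libraries. The HNRNPD deletion rests on 1 hgRNA, so an effect of the deletion and an effect of that guide pair elsewhere cannot be told apart. The share of cells that carried the deletion was not analysed here. The series describes the duplicates as biological, and p-values measure the spread between such libraries.

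HNRNPD, also called AUF1, is a nuclear and cytoplasmic RNA-binding protein. It binds AU-rich elements, short sequences in the 3' untranslated regions of many short-lived mRNAs, and can speed the decay of the bound mRNA or, for some targets, stabilise it or promote its translation. Its pre-mRNA is alternatively spliced, and inclusion or skipping of exons 2 and 7 gives the protein isoforms.

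The guides of the HNRNPD deletion are shown because they fix which sequence was targeted. Both sites were found in GENCODE v29 transcripts of HNRNPD and in no transcript of another gene, and the guides of the controls were found in no annotated transcript. Only exact matches to the whole guide were counted, so sites with mismatches were not searched, and neither was sequence outside annotated transcripts. In the lines that follow, the base sequence of the guide is in lower case and the adjoining motif that the nuclease requires (PAM) is in capitals.
Cas9 site: ataagggtagggtgtatgtgTGG
Cas12a site: TTTAgaacaaattgtcaaccacaatca

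HNRNPD (ENSG00000138668.18) lies on the minus strand of chromosome 4, GRCh38, from 82352498 to 82374503. The Cas9 guide matched chr4:82356336-82356355 on the minus strand and the Cas12a guide matched chr4:82355728-82355750 on the plus strand. Both sites were in intron 7 (chr4:82355402-82356536, 1135 bases) of transcript HNRNPD-201. The Cas9 site began 181 bases after exon 7, the Cas12a site ended 326 bases before exon 8, and 585 bases lay between the sites. Exon 7 (147 bases) is the alternative exon upstream of the targeted sequence. Exon 8 (98 bases), downstream of it, carries the last 65 coding bases and the stop codon, and exon 9 is entirely 3' untranslated. The joined exon ends that distinguish inclusion from skipping of exon 8 are given with the first 15 bases of the downstream exon in capitals, from the annotated transcript.
exon 7 to exon 8: atggtgattatagcaACCAGCAGAGTGGTT
exon 8 to exon 9: acttatccccaacagGTGGTGAAGCAGTAT
exon 7 to exon 9: atggtgattatagcaGTGGTGAAGCAGTAT

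The edited gene was not lower in the deletion. HNRNPD had 247 and 318 spliced reads per 1000000 (CPM) in the HNRNPD deletion libraries, against 253, 207, 208 and 252 CPM in the control libraries. Replicate 2 of the deletion was above all controls, while replicate 1 was within their range. The log2 fold change was 0.34 (SE 0.10, limma, Benjamini-Hochberg adjusted p = 0.0296). The call was lost without deletion replicate 2 (0.22, adjusted p = 0.398) or without correction for GC content and length (0.29, adjusted p = 0.188), and in the authors' deposited table HNRNPD had 143 RPKM in the deletion and 116 RPKM in controls, with a false discovery rate of 0.230. It also did not pass without control hgRNA 1 replicate 2 (0.31, adjusted p = 0.0919) or without control hgRNA 2 replicate 1 (0.30, adjusted p = 0.1).

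The excess of HNRNPD reads was uneven along the gene. Reads spliced across intron 2 were 25.97 and 37.1 CPM in the deletion libraries, against 20.5, 16.3, 15.7 and 19.6 CPM in controls. Reads across intron 6, just upstream of exon 7, were 35.5 and 52.2 CPM in the deletion libraries, against 29.8, 23.9, 24.9 and 31.8 CPM in controls. At both introns the deletion libraries were above all controls, with mean ratios of 1.75 and 1.59. Across the targeted intron 7, the values were 18.9 and 26.6 CPM in the deletion libraries, against 18.7, 24.6, 19.4 and 20.99 CPM in controls, which overlapped (ratio 1.09). The ratios at introns 1, 3, 4, 5 and 8 were 1.38, 1.46, 1.01, 1.19 and 1.05. Single introns were not tested separately.

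**Figure D1:**
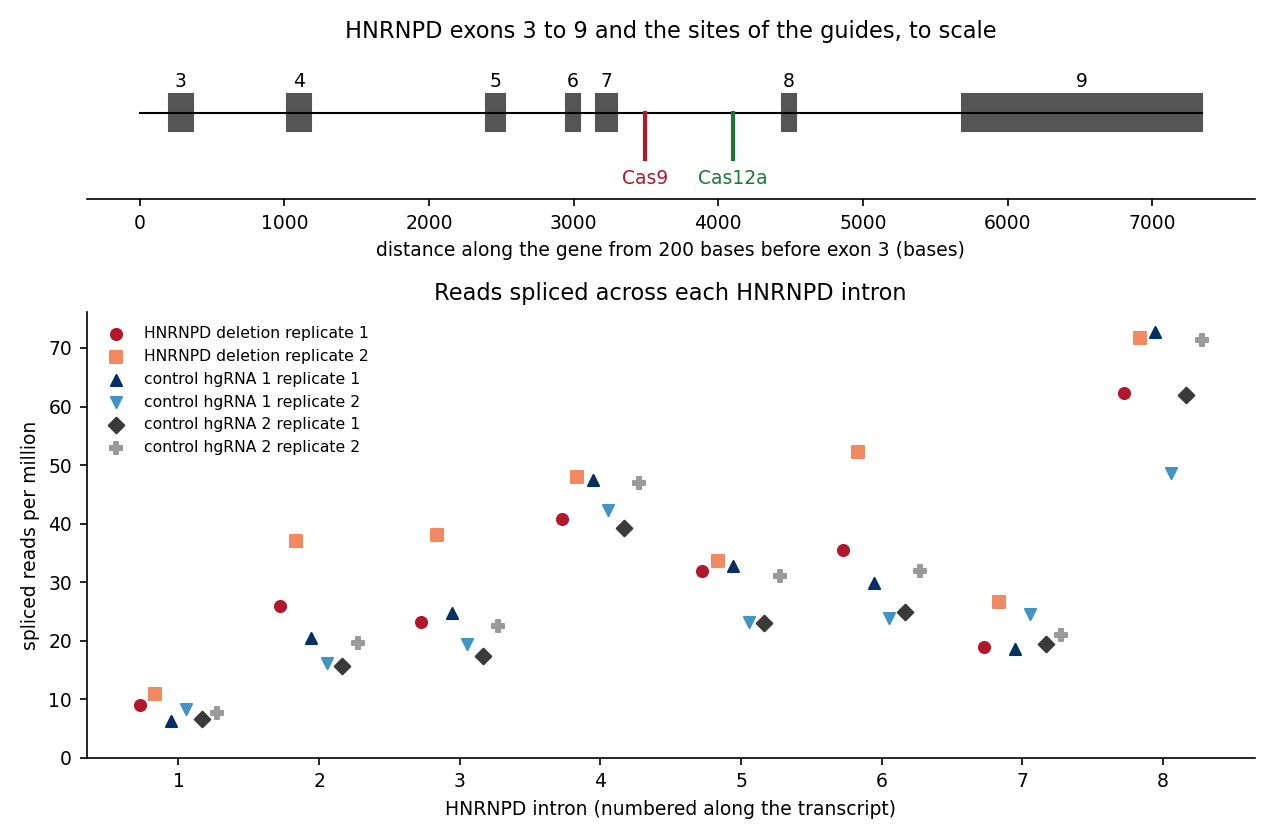
Top: HNRNPD exons 3 to 9 drawn to scale by distance in bases, with the sites of both guides in the intron between exons 7 and 8. Bottom: reads spliced across each of the 8 introns, in CPM, for 2 HNRNPD deletion libraries and 4 control libraries; the deletion libraries lie above all controls at introns 1, 2 and 6, and overlap with them at introns 3, 4, 5, 7 and 8.

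Low-level skipping of HNRNPD exons was present in both deletion libraries and had no read in any control. Reads that skipped exon 8, the exon after the deletion, numbered 38 and 65 in the deletion libraries, against 0, 0, 0 and 0 in controls. As a share of skipping reads plus the mean of the inclusion junctions, this was 5.59% (95% exact Clopper-Pearson interval 3.98 to 7.59%) and 7.89% (6.14 to 9.94%) in the deletion libraries, against 0 of 2941 reads over the 4 controls. Taking 3 counts as the limit that a count of 0 allows, in place of that interval, the control share could be up to 0.102%. Intervals and limits cover counting error only. In the table's own inclusion values, exon 8 was included at 95.8 and 93.9% in the deletion libraries and at 100% in each control. The difference was -5.13 points (limma on log2 read ratios, adjusted p = 0.000361). Among 286953 events tested over all genes, exon 8 had the smallest p, but ranked 9 with a pseudocount of 0.5, and 18 and 24 without deletion replicate 1 or 2. Within the other 28 libraries, 12 had any read skipping exon 8, no library had more than 2, and all had 13 of 20737 reads.

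Reads skipping exon 5, a coding exon of 132 bases, were likewise seen in both deletion libraries, but do not isolate that exon. There were 23 and 37 skipping reads in the deletion libraries, against 0 in each control. The shares were 3.38% (2.15 to 5.02%) and 5.31% (3.76 to 7.24%) in the deletion libraries, against 0 of 2657 reads in controls (up to 0.113% by the limit of 3 counts). The difference in inclusion was -3.96 points (limma, adjusted p = 0.000454), the third smallest p of all events. It ranked 13 with a pseudocount of 0.5, and 23 and 47 without deletion replicate 1 or 2. The table defines exon 5 by the donor of exon 4 and the acceptor of exon 9, and exon 8 by the donor of exon 7 and the same acceptor. By that definition a read that skips exon 5 would leave out exons 5 to 8 together. The inclusion reads were not limited to these flanks, however. In control hgRNA 1 replicate 1, 792 reads entered exon 8, while 493 joined exon 7 to exon 8 and 297 joined exon 6 to exon 8. Which exons the skipping reads left out is therefore not settled, and skipping of exon 5 alone is not shown. The events share a flank, so they are not independent. At the acceptor of exon 6, 33 and 37 reads skipped in the deletion libraries, against 0 in each control, whereas the separate event for exon 6 had 9 and 0 skipping reads in the deletion libraries and none in controls (adjusted p = 0.425). Without the other 28 libraries to estimate the spread, adjusted p was 0.143 for exon 8 and 0.205 for exon 5.

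**Figure D2:**
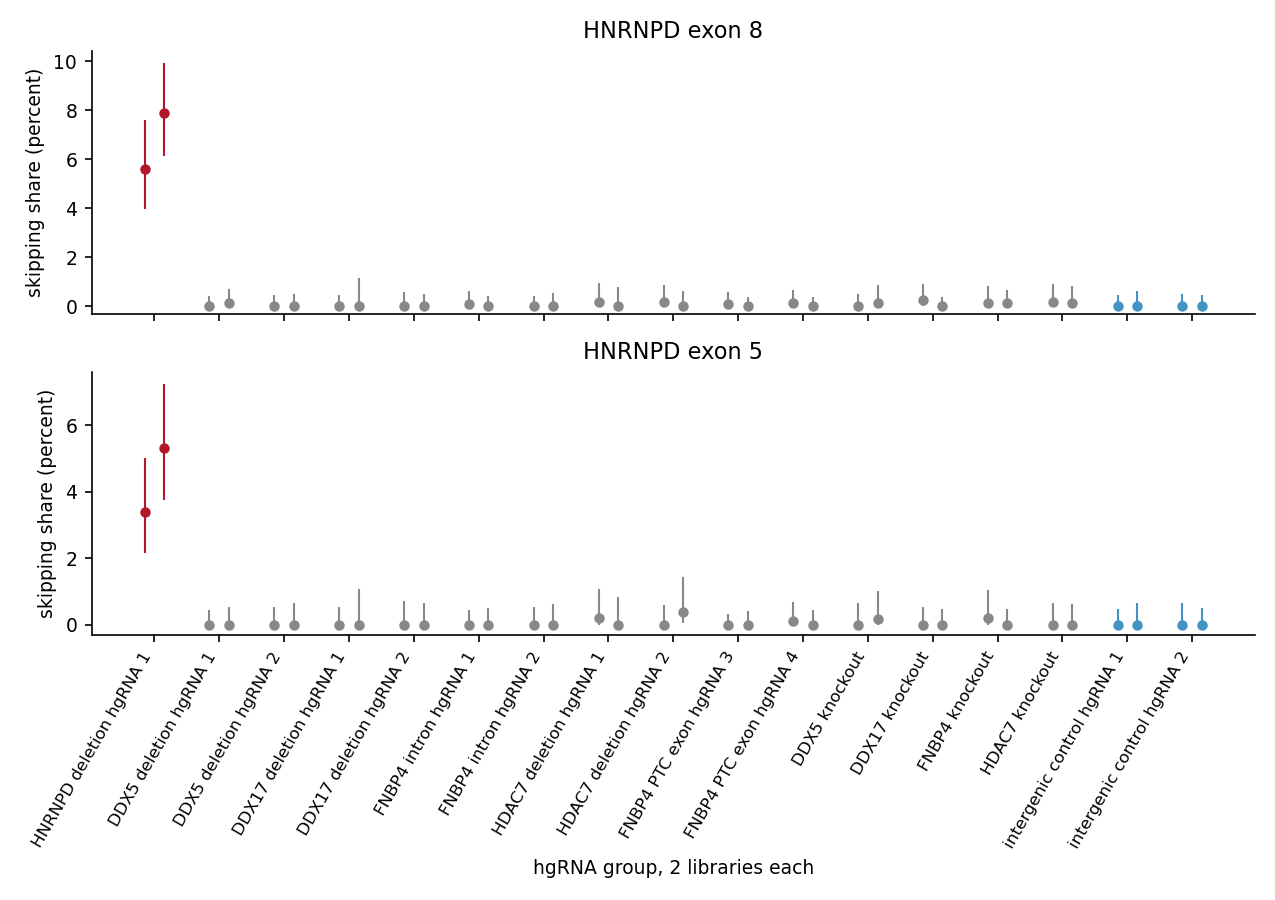
Skipping share in percent for HNRNPD exon 8 (top) and exon 5 (bottom) in all 34 libraries, grouped by hgRNA with 2 libraries each; bars are 95% Clopper-Pearson intervals. The HNRNPD deletion libraries sit at 5.59 and 7.89% (exon 8) and at 3.38 and 5.31% (exon 5), and the 4 control libraries at 0. The exon 5 event is defined by exons 4 and 9, but which exons its skipping reads leave out is not settled.

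Other splicing of HNRNPD did not pass the test. Of 28 HNRNPD events with 20 or more reads in each of the 6 libraries, the events of exons 5 and 8 were the 2 with an adjusted p under 0.05. Exon 2 was included at 88.5 and 85.8% in the deletion libraries, against 88.1, 85.9, 91.8 and 89.9% in controls, with overlapping groups. Exon 7 was joined to exon 8 in 69.5 and 68.7% of reads reaching exon 8 from exons 6 or 7 in the deletion libraries, against 62.4, 70.9, 65.4 and 64.9% in controls, again overlapping. Retention of the targeted intron was 1.04 and 0.48% in the deletion libraries, against 0.56, 0.37, 0 and 0.26% in controls (adjusted p = 0.624). A cassette exon in the 3' untranslated region was included at 1.38 and 0.80% in the deletion libraries, against 0.42, 0.14, 0.42 and 0.36% in controls. Both deletion libraries were above the controls there, but the adjusted p was 0.306.

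Across all genes, 12081 had enough spliced reads to be tested. In the HNRNPD deletion, 700 genes (5.79%) rose and 797 (6.6%) fell relative to controls, in all 12.4% of those tested (limma, adjusted p under 0.05). Of these, 212 changed by 2-fold or more, and for 1438 both deletion libraries were outside the range of the 4 controls. Over all tested genes, called or not, 38.9% were outside that range. The count rested on both deletion libraries: 529 genes passed without replicate 1 of the deletion and 515 without replicate 2, and 997 passed without control hgRNA 2 replicate 2. Median GC content was 49.3% for genes that rose, 46.6% for genes that fell and 47.8% for all tested, and without the correction for GC content and length 522 genes fell. Spliced depth was 12.4 to 20.2 megareads over the series, 17.42 and 15.05 megareads in the deletion libraries and 16.24 to 18.01 megareads in controls. Replicate 2 of control hgRNA 1 stood apart from its duplicate, and 1178 genes passed without it.

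The 12 largest increases were taken among genes with a mean log2 CPM of 2 or more and both deletion libraries above all controls. SLC14A1, a urea transporter on chromosome 18, had 24.8 and 23.1 CPM in the deletion libraries, against 6.94, 7.23, 6.68 and 5.13 CPM in controls. The groups did not overlap, and the log2 fold change was 1.94 (SE 0.16, limma, adjusted p = 7.83e-08). BGN, the matrix proteoglycan biglycan, averaged 97 ± 14.1 CPM in the deletion libraries (SD, n = 2) and 31.4 ± 8 CPM in controls (SD, n = 4), with a log2 fold change of 1.56 (SE 0.17). SDC3, a cell-surface heparan sulphate proteoglycan, had 80.5 and 75.9 CPM in the deletion libraries, against 22.8, 38.1, 26.4 and 21.9 CPM in controls (log2 fold change 1.40). The secreted or matrix proteins OLFML2A (1.63), LAMA5, a laminin chain (1.54), and CRISPLD2 (1.44) also rose, as did PLPP3, a lipid phosphate phosphatase (1.40), PHLDA1 (1.30), the transcriptional repressor HIC1 (1.23), BEX1 (1.41) and MARCKSL1 (1.21). CRABP2, which binds retinoic acid, was at 1.44 with adjusted p = 0.0474 and lost the call under 12 of 16 other settings. MARCKSL1 lost it without deletion replicate 1 (0.93, adjusted p = 0.0831).

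For 3 of these genes the spliced reads and the authors' deposited table differed in size. That table gave log2 fold changes of 0.25 for BEX1 (false discovery rate 0.683), 0.50 for PHLDA1 (0.00118) and 0.54 for MARCKSL1 (0.0598). BEX1 had 823 RPKM in the deletion and 715 RPKM in controls in the authors' deposited table. Its spliced reads were 51.1 and 85.6 CPM in the deletion libraries, against 23.3, 28.3, 24.8 and 22.2 CPM in controls. The reason for the gap was not tested. All 24 genes with the largest changes had the same sign in that table, and 22 had a false discovery rate under 0.05. Of 134 named genes called, 132 were in that table, all with the same sign. Many of them had a false discovery rate above 0.05 there, among them FASN (0.0609), VEGFA (0.130), ID3 (0.0586), E2F1 (0.0801) and MITF (0.197). No called gene of the DEAD or DEAH box helicase list passed there, from 0.0606 for DDX17 to 0.458 for DDX3X. Both sets of values come from the same libraries.

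The largest decrease was in SERPINB2, which encodes plasminogen activator inhibitor type 2, on chromosome 18 (63871692 to 63903890, plus strand). It had 1.92 and 1.67 CPM in the deletion libraries, against 15.98, 13.2, 19.3 and 24.6 CPM in controls. Both deletion libraries were below every control, with a log2 fold change of -3.18 (SE 0.30, limma, adjusted p = 4.66e-07). MGAM, maltase-glucoamylase, had 0.677 and 0.770 CPM in the deletion libraries, against 4.89, 3.61, 4.95 and 6.48 CPM in controls (log2 fold change -2.77). LIPH, a phospholipase that makes lysophosphatidic acid, was at -2.28. C3, the central complement component, had 9.09 and 7.96 CPM in the deletion libraries, against 25.5, 26.4, 33.9 and 32.3 CPM in controls (-1.88). TNFRSF11B, the decoy receptor osteoprotegerin, fell by 1.52 on the log2 scale, and POSTN, the matrix protein periostin, fell by 1.47. SVEP1 (-1.88), SH2D5 (-1.88), CLSTN2 (-1.45), the protease ADAMTS1 (-1.42), the laminin chain LAMA3 (-1.38) and the Wnt inhibitor DKK1 (-1.35) completed the 12 largest decreases among genes with a mean log2 CPM of 2 or more. The rule that chose the 24 genes required both deletion libraries to be beyond all controls.

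**Figure D3:**
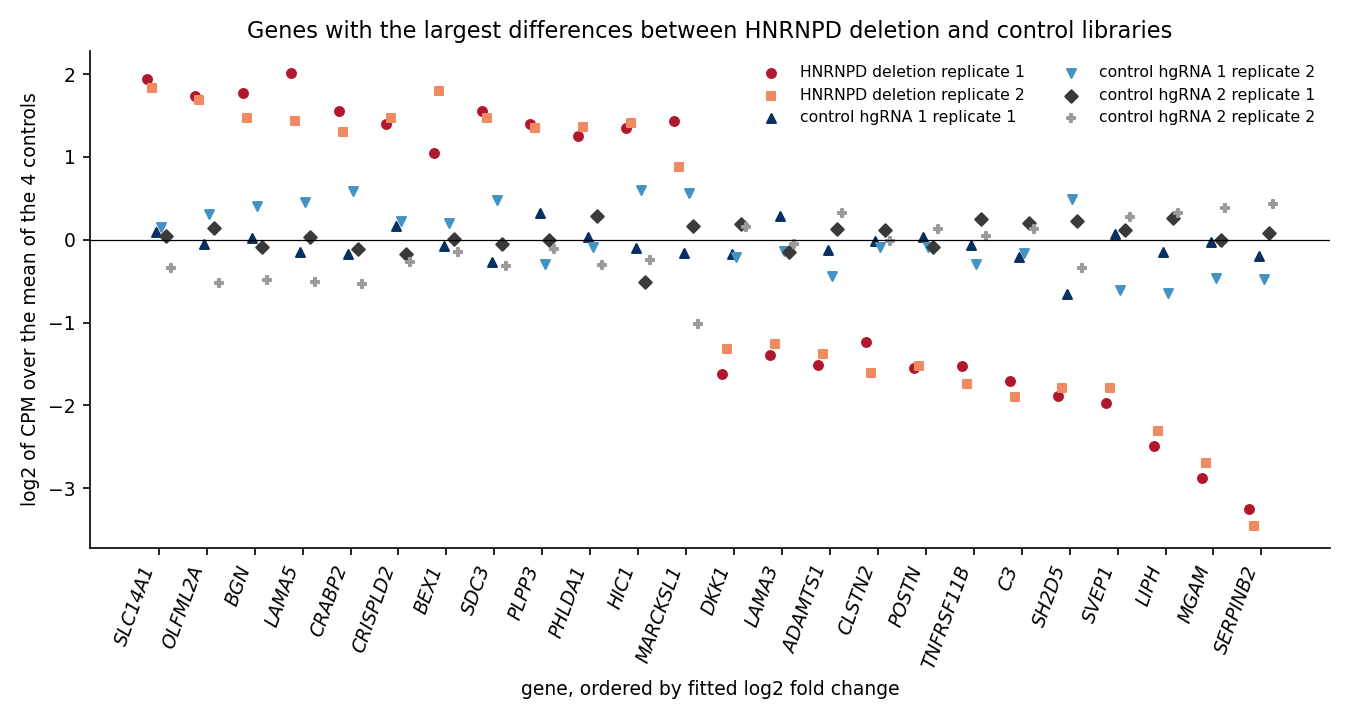
Log2 ratio of each library's CPM to the mean of the 4 controls, for the 12 genes with the largest increases and the 12 with the largest decreases, in 2 HNRNPD deletion libraries and 4 control libraries. The genes were chosen with both deletion libraries beyond all controls; SERPINB2 is the lowest.

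HNRNPD acts among other proteins that bind AU-rich elements or control mRNA decay, and 5 of the 24 tested genes of that list (20.8%) rose while none fell, against 5.79% higher and 6.6% lower over all genes. Their median log2 fold change was 0.30, against 0.00 over all genes, and the 5 include HNRNPD itself. This list and those that follow were chosen with earlier results of these data known, so their counts are descriptive. ZFP36L2, which recruits deadenylases to AU-rich elements, had 20.7 and 17.1 CPM in the deletion libraries, against 9.30, 10.0, 7.46 and 6.04 CPM in controls (log2 fold change 1.18, SE 0.25, limma, adjusted p = 0.00301). FXR1, an RNA-binding relative of FMRP, had 316 and 359 CPM in the deletion libraries, against 245, 208, 226 and 266 CPM in controls (0.51, adjusted p = 0.000544). In both genes the groups were separate. YBX1, a cold-shock mRNA-binding protein, rose by 0.62 and IGF2BP3 by 0.31 on the log2 scale. In the authors' deposited table the log2 fold changes were 0.55 for ZFP36L2, 0.43 for FXR1, 0.53 for YBX1 and 0.05 for IGF2BP3. Of the 5 genes, only ZFP36L2 had a false discovery rate under 0.05 there. ZFP36, the best known AU-rich element decay factor, was at 1.52 with adjusted p = 0.0582. The closest relative of HNRNPD, HNRNPDL, was at 0.11 (adjusted p = 0.732), and ELAVL1, a stabilising binder, at -0.20 (adjusted p = 0.417). The count of 5 was 2 and 3 without deletion replicate 1 or 2. It was also 2 when replicate 2 of control hgRNA 1 was left out, and 3 when replicate 1 of control hgRNA 2 was.

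Of 48 genes whose mRNAs are known for AU-rich elements, 39 were tested; intronless genes such as JUN give no spliced reads. In the deletion 4 (10.3%) rose and 9 (23.1%) fell, against 5.79% and 6.6% over all genes. The median log2 fold change was -0.07, and -0.04 to -0.17 with 1 library left out; it was -0.17 without deletion replicate 1 or control hgRNA 2 replicate 2, -0.13 without replicate 2 of control hgRNA 1 and -0.04 without replicate 1 of control hgRNA 2. CCND1, the cyclin D1 gene, had 664 and 623 CPM in the deletion libraries, against 1021, 1351, 1281 and 1206 CPM in controls (-0.91, SE 0.18, limma, adjusted p = 0.00137). CDKN1A, encoding the cell-cycle inhibitor p21, had 158 and 121 CPM in the deletion libraries, against 231, 349, 331 and 243 CPM in controls (-1.09, SE 0.16, adjusted p = 0.000121). Both were below all controls in each deletion library. The phosphatase gene DUSP1 (-0.72), GADD45A (-0.85), HBEGF (-0.51) and the low-level cytokine gene CSF2 (-2.06) also fell, beside SERPINB2. VEGFA, the vascular growth factor, had 143 and 175 CPM in the deletion libraries, against 93.6, 104, 79.2 and 81.7 CPM in controls, and rose by 0.71 on the log2 scale (SE 0.13). KLF2 (0.85), CDKN1B (0.55) and FOS, near 1 CPM or below in all 6 libraries (1.28), rose as well. MYC was at -0.23 (adjusted p = 0.444) and IL6 at 0.45 (adjusted p = 0.174). With 1 deletion library left out, 1 or 0 rose and 5 fell.

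Counts among mRNA decay and splicing genes are set against 5.79% higher and 6.6% lower over all genes. In the deadenylation and decay machinery, 4 of 31 rose and 1 fell: PAN2 (0.69) and PAN3 (0.34), subunits of a deadenylase, the decapping factor DCP1B (0.64) and LSM14A (0.46) rose, and the exosome nuclease DIS3 fell by 0.27. Without deletion replicate 1 or 2 the counts were 1 higher and 0 lower in each case, and DIS3 also lost its call without control hgRNA 1 replicate 1. Among 21 other hnRNP genes 1 rose, HNRNPH2 (0.96); without deletion replicate 1 the count was 2 and without replicate 2 it was 0. In the authors' deposited table HNRNPH2 was at 0.21, with a false discovery rate of 0.517. Among 21 SR protein and splicing kinase genes 2 rose, SRSF4 (0.33) and SRSF10 (0.43, but 0.045 in the authors' deposited table). Their count was 1 or 0 whichever of the 6 libraries was left out. Of 21 nonsense-mediated decay factors and substrates, 2 fell: EIF4A3, an exon junction complex helicase (-0.32), and GAS5, a noncoding snoRNA host transcript degraded by that pathway. GAS5 had 168 and 184 CPM in the deletion libraries, against 295, 322, 309 and 323 CPM in controls (-0.72, SE 0.14, limma, adjusted p = 0.0018). The count was 1 without either deletion library and 4 without control hgRNA 1 replicate 2. Of 29 DEAD or DEAH box helicase genes 5 fell, DDX21, DDX39A, DDX56, DDX3X and DHX36, and 1 rose, DDX17. Without deletion replicate 1 or 2, 1 and 2 of them fell. DDX17, a target of other deletions in the series, had 507 and 549 CPM in the HNRNPD deletion libraries, against 433, 420, 396 and 412 CPM in controls (0.34, adjusted p = 0.005). It lost the call without deletion replicate 2 (adjusted p = 0.113). DDX5, FNBP4 and HDAC7, also edited in the series, did not pass, at -0.20, 0.10 and 0.15.

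Sterol and fatty acid synthesis genes were lower together: 15 of 26 tested fell and none rose, with a median log2 fold change of -0.47. Over all genes 6.6% fell and 5.79% rose. HMGCS1, an early enzyme of the cholesterol pathway, had 40.5 and 41.6 CPM in the deletion libraries, against 98.5, 78.5, 81.1 and 93.6 CPM in controls (log2 fold change -1.03, SE 0.11, limma, adjusted p = 2.6e-06). FASN, the fatty acid synthase, had 580 and 466 CPM in the deletion libraries, against 688, 896, 766 and 655 CPM in controls (-0.75, SE 0.11). In each of the 2 genes the deletion libraries were below all controls. The sterol enzymes MSMO1 (-0.83), FDFT1 (-0.54) and CYP51A1 (-0.57) and INSIG1, a sterol sensor partner (-0.72), fell too. The regulators themselves did not pass, SREBF2 at -0.26 (adjusted p = 0.134) and SREBF1 at 0.10 (adjusted p = 0.597). The count was 9 and 8 without deletion replicate 1 or 2, and 9 without correction for GC content and length. None rose under these settings.

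Counts of cell-cycle and p53 genes are set against 6.6% lower and 5.79% higher over all genes. DNA replication and G1/S genes were also lower, with 18 of 30 fallen, none risen and a median of -0.44. CCNE2, a G1/S cyclin gene, had 4.97 and 6.68 CPM in the deletion libraries, against 12.98, 10.4, 15.4 and 11.2 CPM in controls (-1.04, SE 0.16, limma, adjusted p = 0.000142). MCM4, a subunit of the replicative helicase, had 63.4 and 61.4 CPM in the deletion libraries, against 96.4, 92.3, 94.0 and 93.6 CPM in controls (-0.58, SE 0.11). Both were separate from the controls. The helicase genes MCM2, MCM3, MCM6, MCM7 and CDC45, the loading factor gene CDC6 and the transcription factor gene E2F1 (-0.63) fell, while MCM5 (-0.24) and PCNA (-0.27, adjusted p = 0.113) did not pass. The count fell to 6 and 4 without deletion replicate 1 or 2, with medians of -0.43 in both. Among 27 mitosis genes 4 fell, AURKA, AURKB, ECT2 and ANLN, with a median of -0.18. The mitosis count was 2 and 0 without deletion replicate 1 or 2, and 2 without control hgRNA 1 replicate 1 or control hgRNA 2 replicate 2. Among p53 targets 8 of 29 fell and 1 rose (PLK2, 0.32), with a median of -0.27. Beside CDKN1A, the fallen p53 targets include RRM2B (-0.77), the autophagy gene DRAM1 (-1.01) and MDM2, the p53 ligase (-0.61). Without deletion replicate 1, 5 fell, and PLK2 lost its call without either deletion library, control hgRNA 1 replicate 2 or control hgRNA 2 replicate 1. In RNA of pooled cells, a smaller share of cells in a phase and less RNA per cell cannot be told apart.

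Targets of NRF2, the transcription factor of the oxidative stress response, were lower. Of 19 tested, 10 fell, against 6.6% over all genes, none rose, and the median was -0.36. Without deletion replicate 1, 7 fell and the median was -0.56. TXNRD1, a thioredoxin reductase, had 713 and 799 CPM in the deletion libraries, against 1313, 1125, 1440 and 1592 CPM in controls (-0.81, SE 0.08, limma, adjusted p = 1.06e-06). SQSTM1, an autophagy adaptor, had 562 CPM in both deletion libraries, against 779, 1112, 981 and 904 CPM in controls (-0.82, SE 0.14). In both genes the groups were apart. HMOX1 (-1.10), the glutathione synthesis gene GCLM (-0.62), the ferritin light chain gene FTL (-0.57), ME1 (-0.85), AKR1C3 (-0.999) and OSGIN1 (-1.42) also fell. In the authors' deposited table FTL was at -0.29, with a false discovery rate of 0.675. NQO1, a widely used NRF2 target, was at 0.03 (adjusted p = 0.925).

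Of 22 integrated stress and amino acid genes, 9 fell and 1 rose, against 6.6% and 5.79% over all genes. The median was -0.44. It was -0.57 without deletion replicate 1 and -0.29 without replicate 2, and fewer genes fell in each. SLC3A2, the shared heavy chain of several amino acid transporters, had 91.3 and 86.5 CPM in the deletion libraries, against 199, 205, 210 and 194.6 CPM in controls (-1.23, SE 0.09, limma, adjusted p = 3.86e-08). In the comparison with controls, SLC3A2 had the smallest adjusted p among the genes named here. Its light chain partners SLC7A11, the cystine transporter (-1.18), and SLC7A5 (-0.96) fell, as did the synthesis enzymes ASNS (-0.70) and PSAT1 (-0.74). SLC7A11 belongs to the NRF2 list as well. ATF4, the transcription factor of this response, was at -0.40 and did not pass. DDIT4 rose by 0.81, with 80.98 and 62.7 CPM in the deletion libraries, against 32.8, 63.6, 40.2 and 29.6 CPM in controls, which overlapped, and it lost the call without deletion replicate 1, control hgRNA 1 replicate 1 or control hgRNA 2 replicate 2. In the list of endoplasmic reticulum folding genes, 2 of 20 rose, the chaperone gene HSPA5 (0.39) and PDIA4 (0.40), and none fell. PDIA4 lost the call without either deletion library, control hgRNA 1 replicate 2 or control hgRNA 2 replicate 1.

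**Figure D4:**
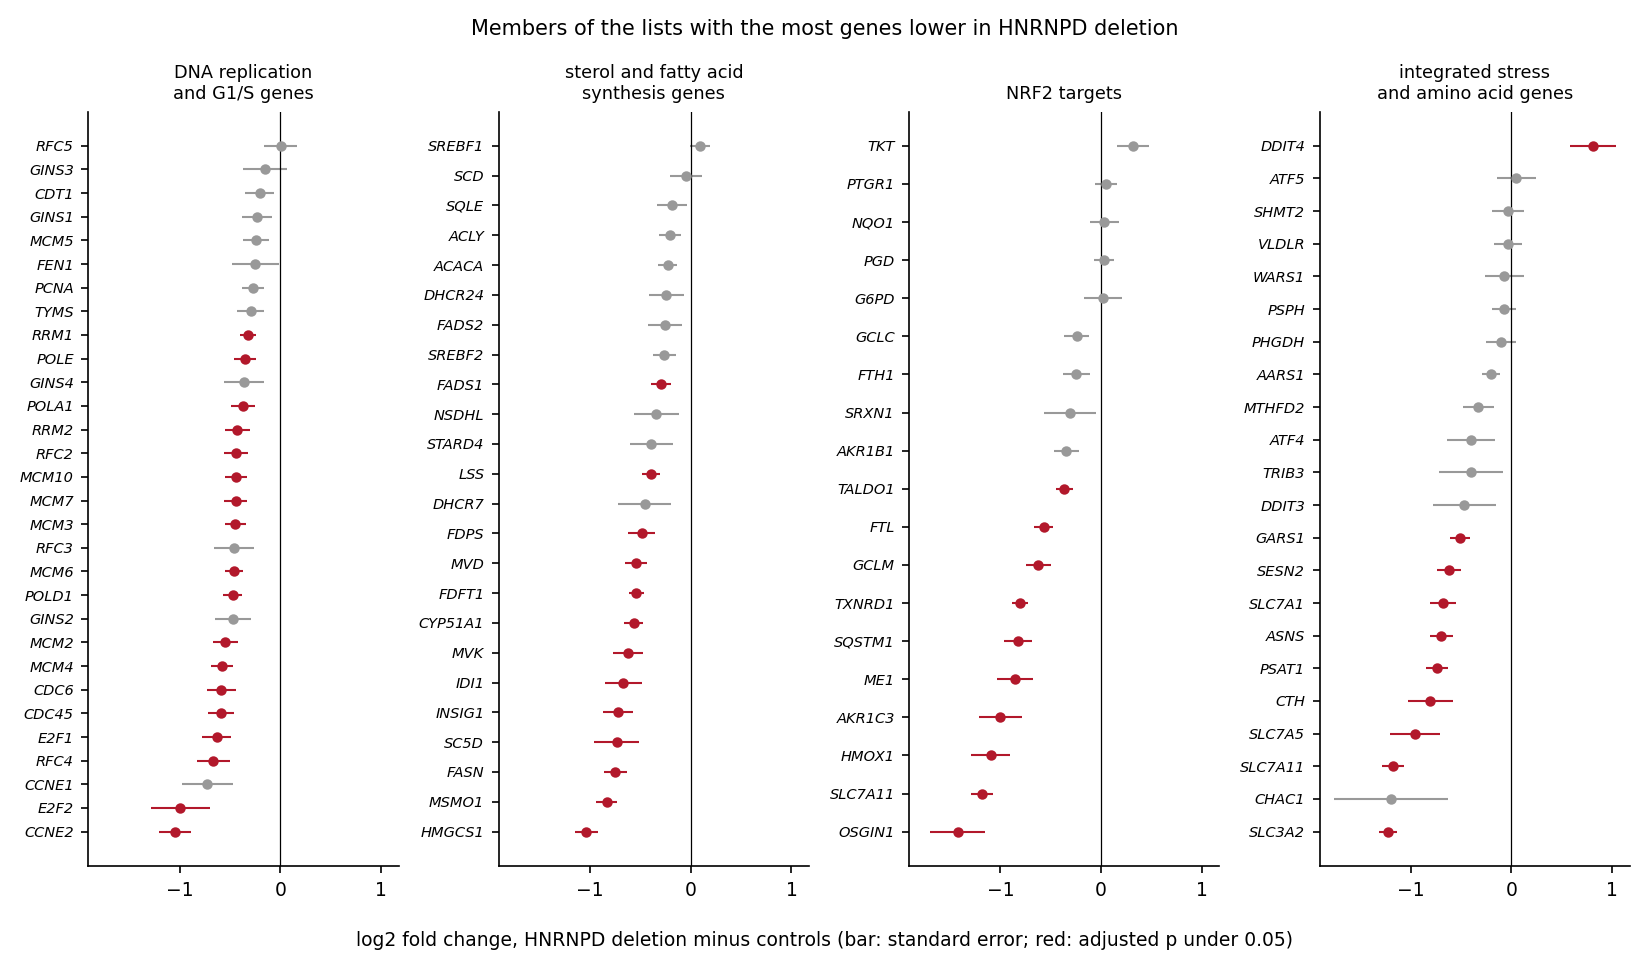
Log2 fold change (HNRNPD deletion minus controls) with its standard error for the tested and reported members of 4 lists, DNA replication and G1/S, sterol and fatty acid synthesis, NRF2 targets, and integrated stress and amino acid genes. Red marks adjusted p under 0.05; all red points but DDIT4 lie below 0.

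Secreted proteases, their inhibitors and growth factor genes moved in both directions. Over all genes 6.6% fell and 5.79% rose. In the plasminogen and serpin list, 6 of 13 fell and 2 rose. ADAMTS5, a protease that cleaves matrix proteoglycans, had 6.72 and 6.55 CPM in the deletion libraries, against 17.4, 13.2, 15.5 and 19.2 CPM in controls (-1.29, SE 0.16, limma, adjusted p = 1.65e-05). SERPINB2, SERPINE2 (-0.46), SERPINB7 (-0.85) and ADAMTS1 also fell, ADAMTS15 (0.84) and SERPINF1 (1.76, from under 2 CPM in any library) rose, and the activators PLAT (0.03) and PLAU (0.08) did not pass. Without deletion replicate 2, fewer genes of that list rose and fewer fell. PDGFRA, a platelet-derived growth factor receptor, had 43.6 and 41.0 CPM in the deletion libraries, against 20.8, 17.4, 19.6 and 19.2 CPM in controls (1.13, SE 0.12, adjusted p = 1.9e-06). PDGFRB rose by 0.79, while NRG1, an ERBB ligand gene, fell by 1.19 and IGFBP3 by 0.57; in that list 4 of 22 rose and 5 fell, 3 of them without deletion replicate 2. Among BMP and TGF-beta genes, 4 of 23 rose, among them ID3, a BMP target (1.15), BMP6 (1.54) and SMAD6 (1.34), and 3 fell, among them the BMP co-receptor RGMB (-0.96). There, 2 rose and 2 fell without deletion replicate 2.

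Counts in the remaining lists are set against 5.79% higher and 6.6% lower over all genes. Of 27 collagen and matrix genes, 6 rose, among them BGN, TGFBI (0.52) and LOXL1 (0.64), and 2 fell, POSTN and LOX (-0.35). The count of higher genes was 3 without either deletion library or control hgRNA 2 replicate 2, and that of lower genes was 1 without deletion replicate 2 or replicate 1 of either control hgRNA. Of 31 hypoxia and glycolysis genes 5 rose, among them CA9 (0.97), VEGFA and NDRG1 (0.67), and 1 fell, LOX; without either deletion library 2 rose and none fell, and LOX also lost its call without replicate 1 of either control hgRNA. Of 16 ERK pathway genes 3 rose, PHLDA1, the phosphatase gene DUSP4 (0.86) and the inhibitor gene SPRY2 (0.51), and CCND1 fell, with 2 lower without control hgRNA 1 replicate 2. Of 31 interferon genes 4 fell, among them DDX58, an RNA sensor (-0.62), and OAS3 (-0.76), and IRF9 rose (0.50). Without deletion replicate 1, 2 interferon genes fell, and IRF9 lost its call without either deletion library, control hgRNA 1 replicate 2 or control hgRNA 2 replicate 1. Of 19 contractile genes 3 were higher and 3 lower, with 1 higher and 1 lower without deletion replicate 1 and 1 higher without deletion replicate 2. Senescence and telomere genes counted 0 higher and 3 lower of 19, and NF-kB targets 0 higher and 2 lower of 16, 1 without deletion replicate 2. Of 10 complement genes C3 alone passed. Cytosolic ribosomal protein genes, whose reads can be shared with processed pseudogenes, had 5 of 57 higher and 1 lower, against 5.79% higher over all genes. Without deletion replicate 2 that was 1 higher, and it was 3 without control hgRNA 1 replicate 2 or control hgRNA 2 replicate 1.

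**Figure D5:**
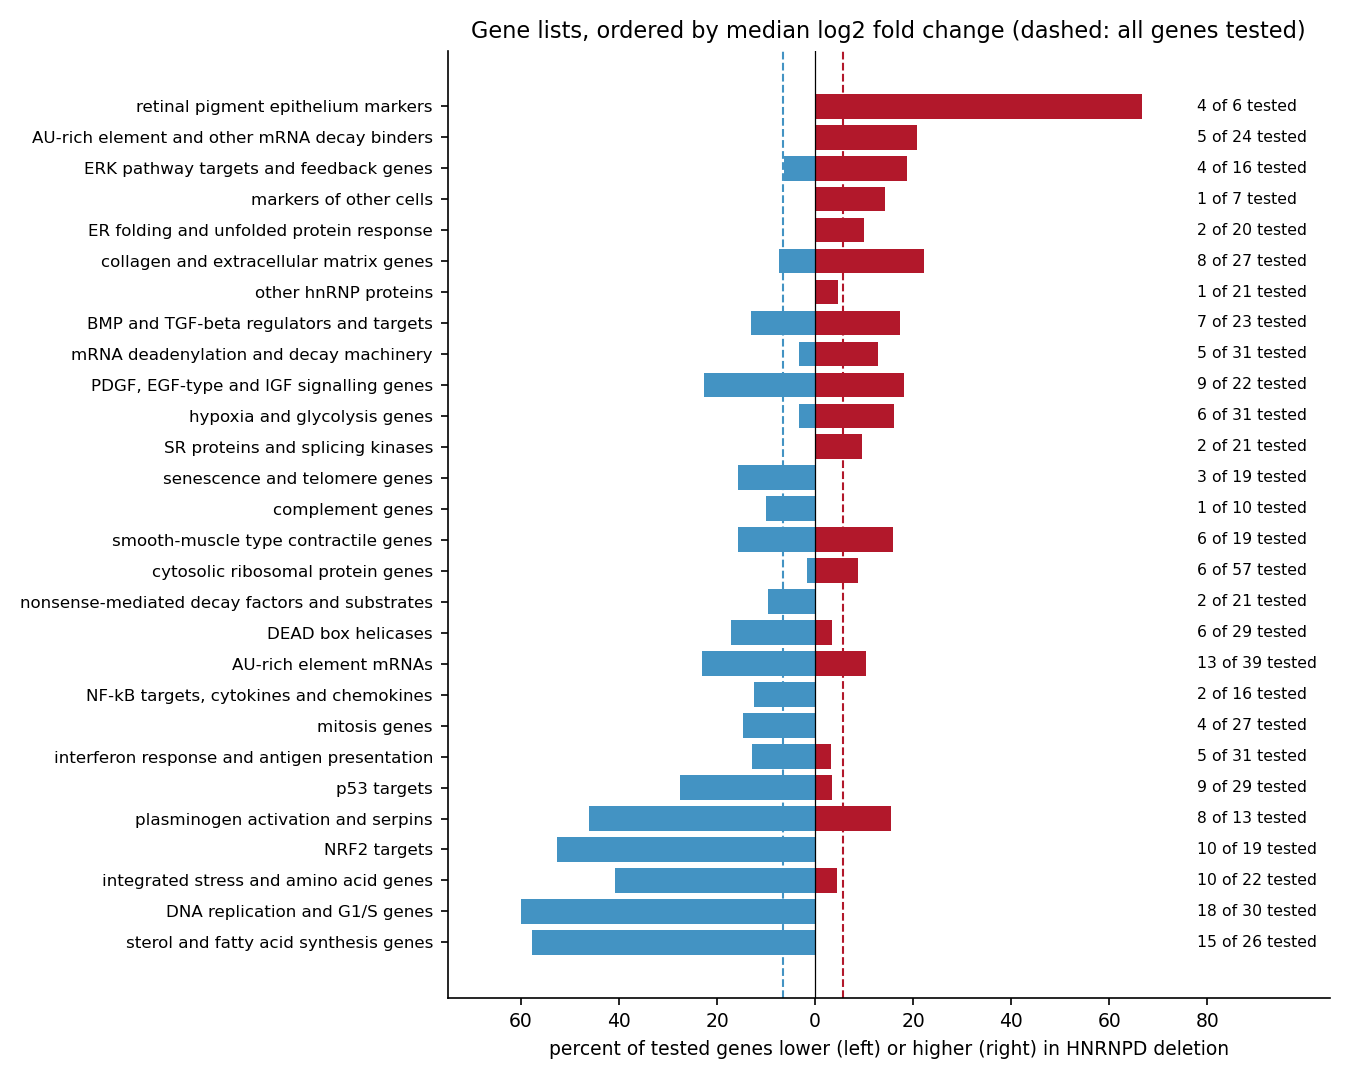
Percent of the tested genes of each of 28 lists that were lower (left) or higher (right) in HNRNPD deletion than in controls (limma, adjusted p under 0.05), ordered by median log2 fold change. Dashed lines mark the values over all genes, 6.6% lower and 5.79% higher. The replication, sterol, NRF2, plasminogen and serpin, and amino acid lists extend farthest to the left, in that order. The lists were chosen with earlier results of these data known.

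The labelled identity was only partly visible in marker genes. Counts of markers that rose are set against 5.79% over all genes. Of 14 retinal pigment epithelium markers, 6 were tested, and RLBP1, TYR, DCT and TTR had no read in any of the 6 libraries. RPE65, BEST1, TYRP1 and LRAT were below the filter. The summed level of all 14 was 1158 to 1186 CPM in the deletion libraries and 904 to 1057 CPM in controls, nearly all of it from KRT8 and KRT18. Without these keratin genes it was 29.9 to 30.8 CPM in the deletion libraries and 19.04 to 21.8 CPM in controls. OTX2, a transcription factor of this epithelium, had 6.998 and 7.70 CPM in the deletion libraries, against 4.31, 5.42, 3.28 and 3.94 CPM in controls (0.87, SE 0.17, limma, adjusted p = 0.00128). MITF (0.57), SERPINF1 and KRT8 (0.47) rose too, so 4 of the 6 rose, and 2 did so without either deletion library. Of 19 markers of other cells 7 were tested, and 1 rose, PDGFRB (2 rose without deletion replicate 1). Their summed level was 1398 to 1617 CPM in the deletion libraries and 834 to 1675 CPM in controls, which overlapped, and HBB, VWF, RBFOX3 and KRT5 had no read.

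A second contrast set the HNRNPD deletion against the mean of the 5 other deletion targets, with no control library in it. In the HNRNPD deletion 1546 genes (12.8%) were higher and 1680 (13.9%) lower, 26.7% of 12081 (limma, adjusted p under 0.05). The count was 1360 without deletion replicate 1 and 1662 without replicate 2. Past the threshold in both contrasts with the same sign were 630 higher and 705 lower genes, 11.1% of those tested. Against the other deletions, median log2 fold changes were -0.34 for the sterol, -0.37 for the NRF2, -0.31 for the amino acid and -0.28 for the p53 list. Medians were -0.245 for the replication, -0.02 for the mitosis and -0.03 for the interferon list. Against controls, the replication, mitosis and interferon medians were -0.44, -0.18 and -0.20. SLC14A1 was 2.61 higher on the log2 scale than in the other deletions (adjusted p = 1.03e-11), and SERPINB2 was at -3.70 (adjusted p = 4e-09). PHLDA1 had 52.4 and 56.3 CPM in the HNRNPD deletion, against 8.85 to 25.1 CPM in the 20 libraries of other deletions. No library of another deletion reached the HNRNPD deletion in that gene. HNRNPD itself was 0.28 higher than in the other deletions (adjusted p = 0.0203).

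The distance to the other targets was unequal. Against DDX5 deletion 4249 genes (35.2%) passed, against DDX17 deletion 3507 (29%), against FNBP4 intron deletion 3245 (26.9%) and against HDAC7 deletion 2771 (22.9%). Against FNBP4 PTC exon deletion 510 genes (4.22%) passed, 323 higher and 187 lower in the HNRNPD deletion. Each target was represented by 4 libraries of 2 hgRNAs. Their own comparisons with controls share the control libraries with this one, and the values are set side by side. For SERPINB2 the log2 fold change against controls was -3.18 in HNRNPD deletion, -3.78 in FNBP4 PTC exon deletion, 2.82 in DDX5 deletion, 1.68 in DDX17 deletion, 1.73 in FNBP4 intron deletion and 0.17 in HDAC7 deletion. For SLC14A1 it was 1.94 in HNRNPD deletion, 2.21 in FNBP4 PTC exon deletion, -1.89 in DDX5 deletion, -1.78 in DDX17 deletion, -1.94 in FNBP4 intron deletion and 0.09 in HDAC7 deletion. HMGCS1 was at -1.03 in HNRNPD deletion, -0.91 in FNBP4 PTC exon deletion and between -0.43 and 0.09 in the remaining 4 targets.

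Some genes differed between the HNRNPD and FNBP4 PTC exon deletions. PHLDA1 was at 1.30 in HNRNPD deletion and -0.05 in FNBP4 PTC exon deletion relative to controls, and the direct contrast passed (limma, adjusted p = 0.00234). MARCKSL1 was at 1.21 in HNRNPD deletion and -0.48 in FNBP4 PTC exon deletion (adjusted p = 0.000468). ZFP36L2 was at 1.18 in HNRNPD deletion and -0.16 in FNBP4 PTC exon deletion (adjusted p = 0.00477). BEX1, SDC3, PNRC1 and ZNF580 were higher in the HNRNPD deletion by the same test. FNBP4 itself was at 0.10 in HNRNPD deletion and 1.58 in FNBP4 PTC exon deletion (adjusted p = 0.00234).

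Few splicing events outside HNRNPD passed. Of 286953 events, 42 (0.0146%) had an adjusted p under 0.05. Among the 42, 9 differed by less than 0.5 points. Events of AMD1, ABL2 and SEMA3F among them had the same inclusion, 0 or 100%, in all 6 libraries, and their ratios differed through read depth and the pseudocount. Of the 42, 7 (0.00244% of all events) differed by 10 points or more. These 7 were 4 cassette exons (0.00388%) and 3 introns (0.00408%). In 5.43% of all events both deletion libraries were outside the range of the controls. At an unadjusted p under 0.05 there were 23465 events. Retention of a 2155-base intron of TXNDC9 (chr2:99319800-99321954) was 16.1 and 13.9% in the deletion libraries, against 4.92, 0.962, 2.79 and 2.06% in controls, and rose by 12.3 points (limma, adjusted p = 0.0487). Inclusion of a 278-base exon of VSIG10 (chr12:118082152-118082429) was 100% in both deletion libraries, against 90.6, 88.1, 85.4 and 90.3% in controls, 11.4 points higher. An exon of SP140L (chr2:230389919-230390023) was included at 80.5 and 85.7% in the deletion libraries, against 94.5, 97.6, 96.3 and 94.9% in controls, 12.7 points lower. In FANCD2, a DNA repair gene, a 111-base exon (chr3:10072871-10072981) was included at 83.6 and 93.9% in the deletion libraries and at 100% in each control. The FANCD2 values rest on 33 and 31 reads in the deletion libraries and on 38, 24, 29 and 47 reads in controls. The other 3 events were an intron of the pseudogene PDXDC2P, whose reads may be shared with its parent gene (21.1 points higher), an intron of PACS2 (-10.1 points) and an exon of ERICH1 (-10.8 points). Reads in the deletion libraries were few there as well, at 37 and 46 for PDXDC2P, 22 and 31 for PACS2, and 37 and 42 for ERICH1. All 7 lost the call when either control hgRNA alone was the baseline or when the 6 libraries were fitted alone. Without deletion replicate 1 the count was 30 and without deletion replicate 2 it was 35. It was 0 when replicate 2 of control hgRNA 1 was left out, and 2 or 1 when replicate 1 or 2 of control hgRNA 2 was. Among the 28 events of HNRNPD, none reached the 10-point limit.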

How the data were processed

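Total RNA from 34 RPE-1 libraries was sequenced, and 2 HNRNPD deletion and 4 intergenic control libraries form the comparison. The deposited splicing table gives, per the file headers, an inclusion level in percent and a quality string with read counts for each event and library; no source used here gives the aligner or build. Its intron positions matched GENCODE v29 (GRCh38) for 99.99% of 111777 introns with reads. The quality scores of the authors were used only for these reads. The authors' deposited expression table gives RPKM, log2 fold changes and p-values. Salmon 1.10 and edgeR are named in the submitters' processing notes. Of the table's libraries, 2 are not in the sample list and were not used.

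Exon-exon junction reads of intron events were summed per gene, and this count was analysed because the deposited RPKM holds no per-library depth. All read values were whole. Genes with 10 reads at median depth in 2 libraries and 15 in all were kept. Library sizes were scaled by TMM, and a spline trend with GC content and length (5 degrees of freedom) was removed per library. limma 3.58.1 with voom weights (R 4.3.3) was fitted to all 34 libraries, 1 coefficient per hgRNA group, with Benjamini-Hochberg adjustment over all genes. CPM values in the text are scaled but not corrected for the trend. Fold changes are corrected, and the 2 can differ. Events needed 20 reads in each of the 6 libraries and were tested as log2 ratios with a pseudocount of 1. Procedures were tested on simulated data. Simulated events had mostly intermediate inclusion, so events at 100% in each control, such as HNRNPD exons 5 and 8, were not modelled.

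Named genes were the 5 edited genes, the 12 largest increases and 12 largest decreases past the threshold with a mean log2 CPM of 2 or more and both deletion libraries beyond all controls, 8 genes each way past both contrasts, and up to 6 members of each list. Other members are named by role and were chosen with their values known. The members and lists were chosen with earlier results of these data known. Replicate numbers did not pair the libraries: deviations of equal numbers correlated at -0.03, 0.07 and -0.17. Duplicates differed beyond sampling noise (chi-square per degree of freedom 7.57 to 29.0). Alternatives covered scaling, trend, filters, libraries in the fit, either control hgRNA, a replicate block and each library left out. The fits without 3 libraries that stand apart and without knockouts, and the event count without a size limit, were added after seeing the data. Values of some single list members are not reported here, although the list counts include them.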

Additional observations from a re-analysis of the deposited data

Results flagged for a closer look

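Among 134 genes examined over the 4 control libraries, 5 had 1 control library far from the other controls, while chance gives about 1 in 20. Control hgRNA 1 replicate 2 was apart for MSMO1 (55.53 CPM), RELB (22.34 CPM) and AURKB (49.51 CPM). It was the lowest control for MSMO1. Control hgRNA 2 replicate 2 was apart for HERC5 (18.51 CPM) and ANKRD1 (983.5 CPM).

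In 1335 genes the HNRNPD deletion differed with the same sign from the controls and, by the test of that difference, from the mean of the 5 other deletion targets (limma, adjusted p under 0.05). The 8 largest each way among coding and named noncoding genes with a mean log2 CPM of 2 or more are given with their log2 fold changes against the other deletions. Higher were SLC14A1 (2.61), BGN (2.43), MARCKSL1 (2.15), CA9 (2.11), OLFML2A (2.09), PNRC1 (2.07), ZNF580 (1.92) and MFAP2 (1.84). Lower were SERPINB2 (-3.70), MGAM (-2.55), LIPH (-2.55), SVEP1 (-2.23), SH2D5 (-1.85), ADAMTS1 (-1.82), BMPER (-1.80) and MYPN (-1.69). For PNRC1 and ZNF580 the deletion libraries overlapped with the controls: PNRC1 had 39.2 and 27.4 CPM in the deletion libraries, against 13.03, 31.6, 21.6 and 11.1 CPM in controls. The mean of the other deletions joins targets that moved in opposite directions for SLC14A1 and SERPINB2. Against FNBP4 PTC exon deletion alone 510 genes (4.22%) passed, while 22.9 to 35.2% passed against each other target. A difference from the mean is therefore not a difference from every target.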

How the results depend on the processing

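The 1497 genes called against controls became 2314 (1073 higher, 1241 lower) with the 6 libraries alone, which left 3 residual degrees of freedom, and 659 (300 higher, 359 lower) with control hgRNA 1 alone as baseline; 522 were lower without the GC and length trend. Leaving out 1 library gave 515 to 1178 genes (249 to 541 higher, 222 to 710 lower) and, against the other deletions, 1360 to 3193 (655 to 1536 higher, 704 to 1671 lower). HNRNPD, at 0.34, was no longer called without the trend (0.29), without the count filter (0.32), with control hgRNA 1 alone (0.31) or without the 3 libraries that stand apart (0.30, chosen after seeing the data), and ranged over 0.22 to 0.48 with 1 library left out. DDX5 against the other deletions was at -0.07; it was 0.0495 without deletion replicate 1 and -0.18 without deletion replicate 2, not called in either. The cause of these shifts was not tested. The 7 called events became 3 at 50 reads, 13 at a 5-point limit, 42 with no size limit (chosen after seeing the data), 0 with the 6 libraries alone, 0 with control hgRNA 1 alone, 0 with control hgRNA 2 alone and 0 to 35 with 1 library left out. With the 6 libraries alone, HNRNPD exon 8 (-5.125 points) and exon 5 (-3.96 points) were no longer called. Of 134 named calls 64 held under every alternative, as did 22 of the 24 genes with the largest changes.

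Equal replicate numbers did not pair the libraries. With a replicate block 1573 genes and 3 events were called, and HNRNPD was at 0.34 with a limma adjusted p of 0.0284.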
